A study of Triticum dicoccoides with 12 samples.

Results

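The alpha-tubulin gene TUBA and the xyloglucan endotransglucosylase/hydrolase gene XTH were followed in roots of wild emmer wheat through the 3 probe sets that carry these symbols in the array's annotation, out of 61179 wheat probe sets on the array. TUBA (Entrez gene 543387) was represented by 2 probe sets, a bright one whose array ID ends in S1_x_at and a dim one whose ID ends in S1_at, and XTH (Entrez gene 543464) by a single probe set ending in S1_at. The plot of values by array gives the full ID of each. The ending _x_at marks a probe set in which some probes also match other transcripts of the array design, so the bright TUBA probe set may collect signal from several transcripts. The 2 Entrez identifiers had 0 matches in the RefSeq gene table used here, so no chromosome position is given.

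Alpha-tubulin pairs with beta-tubulin to build microtubules, which form the mitotic spindle of dividing cells and, under the plasma membrane of elongating cells, guide the complexes that lay down cellulose. XTH proteins cut xyloglucan chains in the cell wall and join the ends to other chains, which loosens or reinforces the wall as cells expand. Both gene families are used as readouts of root growth, which continues at the tip of cereal roots in drying soil, as studied most in maize.

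Total RNA from roots was measured on Affymetrix wheat arrays, which use 1 colour and carry probes designed from bread wheat transcripts. The 4 groups were the wild emmer genotype Y12-3 after 7 days without water, Y12-3 kept well-watered, the genotype A24-39 after 7 days without water, and A24-39 kept well-watered. All plants were labelled as 4 weeks old and were grown in a greenhouse, with water withheld from the 4-leaf stage, and each group had 3 arrays labelled as biological replicates. Y12-3 is known from earlier work as drought-resistant, and A24-39 is its drought-susceptible counterpart. It is not stated whether each RNA came from 1 plant or a pool, and root tip and mature root were not separated, so fewer growing cells and less transcript per cell cannot be told apart.

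Values are the deposited ones, in log-like units centred on 0 for each array, with an unstated base. Were they plain logarithms, 1 unit would stand for 2.72-fold with natural logarithms or 2-fold with base 2. Background was read from 23 control probe sets that have no wheat target and received no added RNA. The brightest of them lay between -0.271 and -0.0551 on the 12 arrays, and its mean over arrays, -0.152, was the background level for group means. Of the wheat probe sets, 33.0% to 47.8% lay over the brightest such control of their array. The third well-watered Y12-3 array stood apart in this share, the highest, against 41.8% at most on the other 11 arrays. It also had the flattest response of the added control RNAs, with a slope of 0.839 against their mean over arrays. By slope it did not stand alone: the 3 stressed Y12-3 arrays had 0.871 to 0.918, and all remaining arrays 0.976 to 1.11. Differences under stress in Y12-3, between well-watered genotypes and between responses use the third well-watered Y12-3 array. Their values for the 3 probe sets are also given without it. Of the 4 probe sets of the shoot markers FBP and petC, 3 lay under the background level in all 4 groups, and the other, of FBP, had group means of -0.216 to -0.106.

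The 3 probe sets differed in where they stood on their arrays. The bright TUBA probe set lay over the brightest non-target control on 12 of 12 arrays, XTH on 8 and the dim TUBA probe set on 1. On no array did more than 0.258% of the wheat probe sets exceed the bright TUBA probe set. XTH stood between the 51.1 and the 88.4 percentile of its array, and the dim TUBA probe set between the 26.6 and the 66.6 percentile. These percentiles describe signal, and levels of different probe sets are not set against each other.

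**Figure D1:**
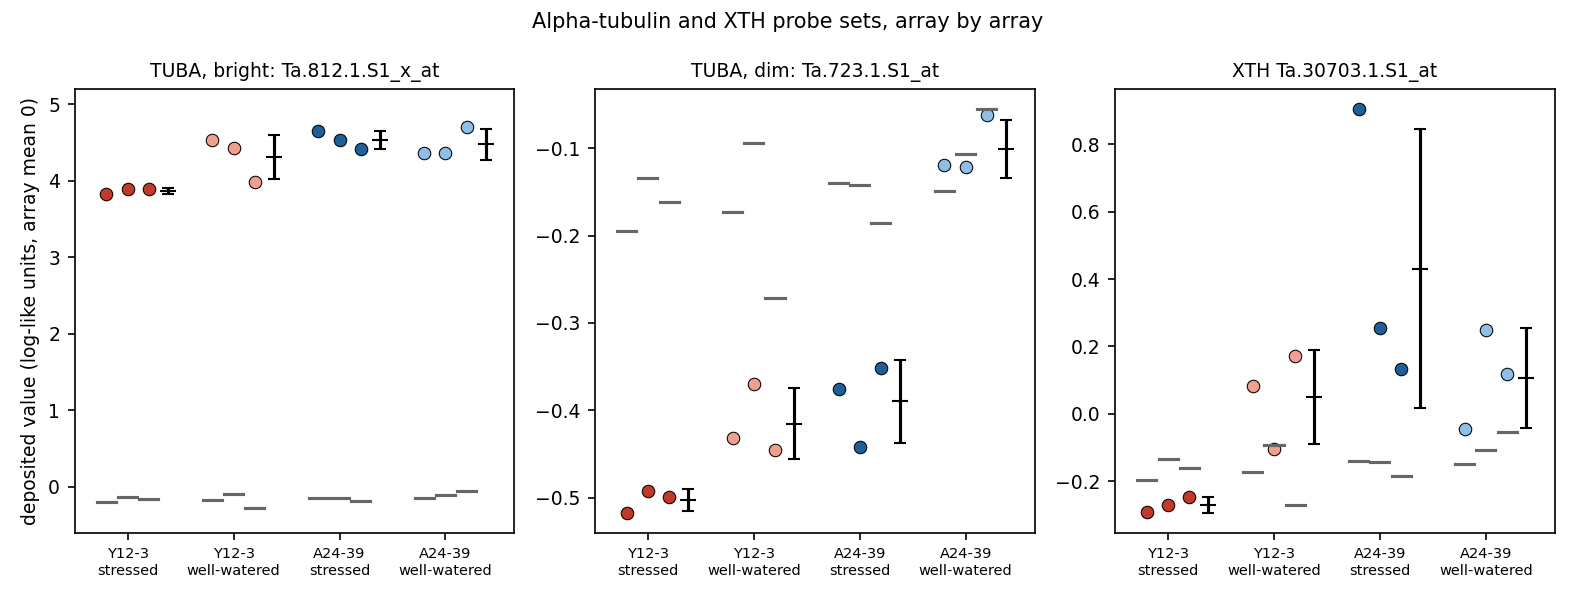
Deposited value (log-like units, array mean 0) of the 3 probe sets on each array, in 4 groups of 3 arrays in the order of their replicate numbers. Points are arrays, black bars are the group mean and SD, and grey dashes are the brightest non-target control of that array. The vertical scales differ. The bright TUBA probe set lies 4.02 to 4.79 units over the dashes, the dim one lies under them on 11 of 12 arrays, and XTH lies under them on all 3 stressed Y12-3 arrays.

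The bright TUBA probe set was lowest in stressed Y12-3 roots. The 3 arrays gave 3.828, 3.898 and 3.888 units in stressed Y12-3, against 4.530, 4.427 and 3.984 in well-watered Y12-3. The stressed arrays were all under the well-watered ones, but the third well-watered array lay only just over them. In A24-39 the arrays gave 4.646, 4.534 and 4.413 units under stress and 4.360, 4.360 and 4.709 with water, and these groups overlapped. The group means ran from 3.87 ± 0.04 in stressed Y12-3 over 4.31 ± 0.29 in well-watered Y12-3 and 4.48 ± 0.20 in well-watered A24-39 to 4.53 ± 0.12 in stressed A24-39 (SD, n = 3 each). Of the neighbours in this order, only the lowest pair did not overlap.

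On each array the rank of the bright TUBA probe set among the 61179 wheat probe sets was also counted, with rank 1 the brightest. It was 159, 89 and 146 in stressed Y12-3, against 36, 43 and 59 in well-watered Y12-3. In A24-39 it was 57, 62 and 117 under stress, against 32, 60 and 56 with water. The ranks in stressed Y12-3 were thus the lowest but for the third stressed A24-39 array, which lay between them.

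In the limma fit across all probe sets, the bright TUBA probe set fell under stress in Y12-3 by 0.44 units (SE 0.14, 95% interval -0.74 to -0.14, adjusted p = 0.0451). It was the 1 member of 3 called in this comparison, against a background of 19.2% of all probe sets called in either direction and 8.09% called lower. The size of the difference exceeded that of 91.5% of the probe sets tested, whose median size was 0.0588 units. Of these, only 33.0% to 47.8% lay over the brightest non-target control of their array, so this rank is mostly against dim signals. The call stood close to the threshold and was lost when any of 10 of the 12 arrays was left out (limma adjusted p = 0.0529 to 0.158). It was also lost with the replicate number as a block (limma adjusted p = 0.0651) and in a fit of the 6 Y12-3 arrays alone (limma adjusted p = 0.0812). Without the third well-watered Y12-3 array the difference was -0.61 ± 0.10 units (SE, limma adjusted p = 0.00319). In that fit the slopes of the added controls also differed, at 0.871 to 0.918 under stress against 1.09 and 1.04 with water in Y12-3. Set against the added cre control described below, the bright TUBA probe set differed by 0.0070 units on the same arrays.

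In A24-39 the same probe set differed between stressed and well-watered roots by 0.05 ± 0.14 units (SE, 95% interval -0.25 to 0.36, limma adjusted p = 0.865), a sign that turned to -0.16 under quantile normalization and to -0.03 after rescaling on the added controls. The difference of the responses, Y12-3 minus A24-39, was -0.50 ± 0.19 units (SE, 95% interval -0.92 to -0.07), with a limma adjusted p of 0.526. It was -0.66 ± 0.14 units with the third well-watered Y12-3 array left out (SE, limma adjusted p = 0.0704). Among the refits, only array weights called this difference, at -0.69 units (limma adjusted p = 0.0352). The responses of the 2 genotypes were therefore not shown to differ for this probe set in the main fit.

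Between the genotypes, the bright TUBA probe set was lower in Y12-3 than in A24-39 under stress, with a difference of -0.66 ± 0.14 units (SE, 95% interval -0.96 to -0.36, limma adjusted p = 0.0138). All 3 stressed Y12-3 arrays lay under all 3 stressed A24-39 arrays, and 38.4% of all probe sets had no overlap between these groups. Quantile normalization took the difference to -0.23 units and ended the call (limma adjusted p = 0.194). The call was also lost without the first stressed Y12-3 array or without the first stressed A24-39 array (limma adjusted p = 0.0510 and 0.0606). In well-watered roots the difference was -0.16 ± 0.14 units (SE, 95% interval -0.46 to 0.14, limma adjusted p = 0.678), and it was 0.0022 units without the third well-watered Y12-3 array. Since the probes were designed from bread wheat, a sequence difference under them could also separate the genotypes, which was not tested.

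The brightest RNA added to the samples as a control, the cre transcript of bacteriophage P1 that is mixed in before hybridisation, moved with this probe set. Its 3′ probe set gave 4.684, 4.543 and 4.713 units in stressed Y12-3, against 5.377, 5.144 and 4.564 in well-watered Y12-3. In A24-39 it gave 5.513, 5.317 and 5.516 units under stress, against 4.911, 5.174 and 5.655 with water. The 4 arrays with the lowest cre value, the 3 stressed Y12-3 arrays and the third well-watered Y12-3 array, were the 4 with the lowest TUBA value.

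Set against cre on the same array, a measure chosen after the values were seen, the bright TUBA probe set stood at -0.78 ± 0.11 units in stressed Y12-3, against -0.71 ± 0.13 in well-watered Y12-3 (SD, n = 3 each). The difference was -0.06 units, and 0.0070 units without the third well-watered array. In A24-39 the values were -0.92 ± 0.17 under stress and -0.77 ± 0.20 with water (SD, n = 3 each). Between stressed Y12-3 and stressed A24-39 the difference was 0.14 units, with the opposite sign to that of the deposited values. As cre was picked because it moved with TUBA, these values describe the arrays. Exact permutation tests of them gave unadjusted p = 0.4 to 0.8 over 4 comparisons, and no conclusion is drawn from these p-values.

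**Figure D2:**
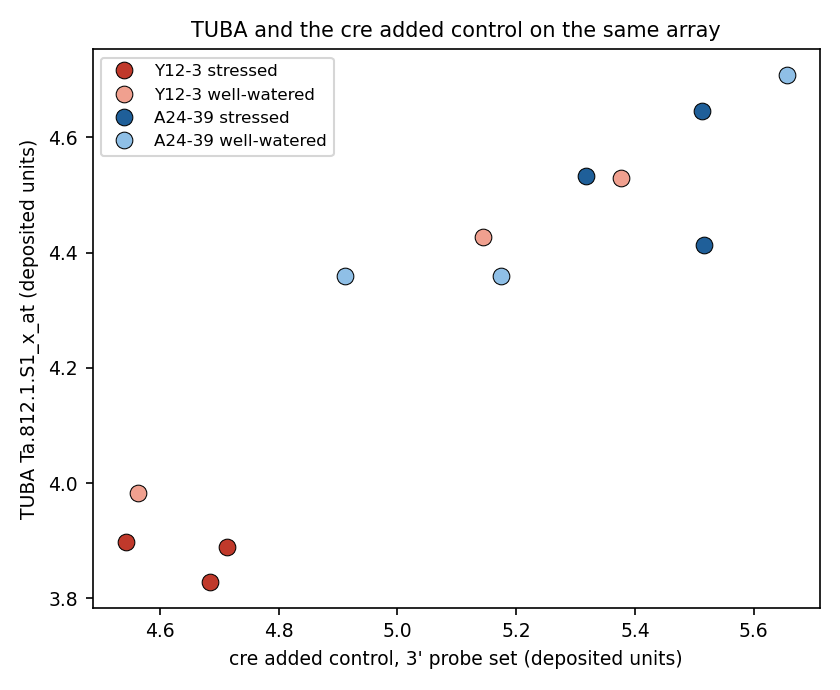
Value of the bright TUBA probe set (vertical) against that of the 3′ probe set of the added cre control (horizontal) on the same array, both in deposited units, 1 point per array and 3 arrays per group. The 3 stressed Y12-3 arrays and the third well-watered Y12-3 array sit at the lower left, with cre at 4.54 to 4.71 units and TUBA at 3.83 to 3.98 units.

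A linear rescaling of each array on its 63 probe sets for added controls took the difference in Y12-3 to -0.05 ± 0.14 units (SE, limma adjusted p = 0.997), with group means of 4.28 ± 0.15 under stress and 4.32 ± 0.14 with water (SD, n = 3 each). The same rescaling took the difference of stressed Y12-3 from stressed A24-39 to -0.01 ± 0.14 units (SE, limma adjusted p = 0.942). In Y12-3 the added controls had slopes of 0.894 ± 0.023 under stress and 0.989 ± 0.134 with water, and in A24-39 of 1.07 ± 0.03 under stress and 1.04 ± 0.07 with water (SD, n = 3 each). Neither cre nor the slope separated the Y12-3 groups, in which the third well-watered array was low (exact permutation p = 0.3 for cre and 0.4 for the slope, 2-sided, where 3 against 3 arrays cannot go below 0.1). The first and second well-watered Y12-3 arrays, with slopes of 1.09 and 1.04, lay over all stressed ones in cre and in slope. Between stressed Y12-3 and stressed A24-39 cre did separate, at 4.54 to 4.71 against 5.32 to 5.52 units (exact permutation p = 0.1). The slopes there did not overlap either, at 0.871 to 0.918 against 1.04 to 1.10. The 3′ minus 5′ signal of the added dap RNA did separate the waterings without overlap, in both genotypes (exact permutation p = 0.1 in each). In Y12-3 it was 0.847 ± 0.041 under stress and 1.25 ± 0.20 with water. In A24-39 it was 0.949 ± 0.061 and 1.15 ± 0.13 (SD, n = 3 each). The part of the added controls' signal in the TUBA difference was not tested.

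The array holds 4 further probe sets whose IDs carry the same cluster number as the bright TUBA probe set, and they were picked by that number and not by value. One of them has the placeholder symbol LOC100049037 and the other 3 have no symbol, so their gene is not stated. All 4 were bright, with group means between 2.23 and 4.57 units. Under stress in Y12-3 they differed by -0.46 to -0.19 units, 4 of 4 below 0, as were 53.0% of all probe sets. Of the 4, 0 were called (limma adjusted p = 0.0929 to 0.476), against 19.2% of all probe sets in either direction. Without the third well-watered Y12-3 array they differed by -0.60 to -0.27 units and 3 of 4 were called lower (limma adjusted p = 0.0092 to 0.297), against 8.10% of all probe sets in that fit. In A24-39 they differed by -0.12 to 0.26 units, 1 of 4 below 0 and 0 called (limma adjusted p = 0.568 to 0.989). There 39.3% of all probe sets lay below 0 and 10.7% were called in either direction.

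For the one of these 4 with the highest signal, with an ID ending in S1_at, the arrays gave 3.829, 3.914 and 3.732 units in stressed Y12-3, against 4.522, 4.318 and 3.492 in well-watered Y12-3. The third well-watered array lay under all stressed ones, so the groups overlapped. Between stressed Y12-3 and stressed A24-39 the 4 probe sets differed by -0.75 to -0.23 units, and 2 of them, this one and its S1_x_at counterpart, had no overlap between the groups, against the 38.4% of all probe sets given above. Their limma adjusted p-values in that comparison were 0.0652 and 0.0617.

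**Figure D3:**
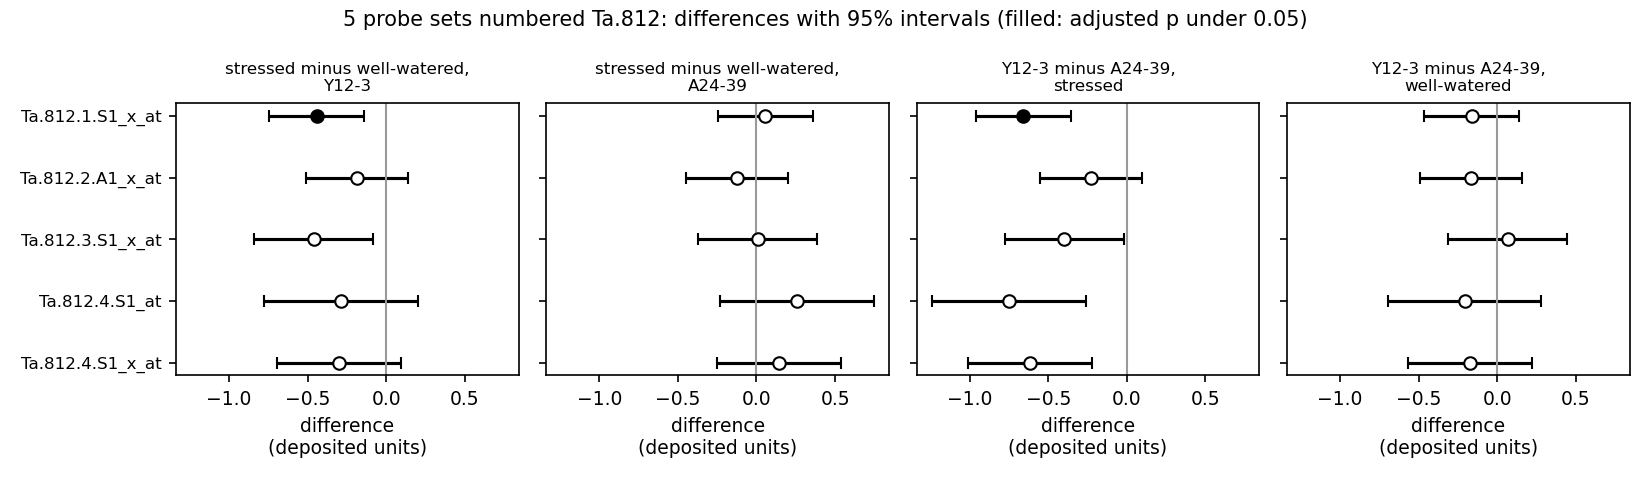
Differences between groups (horizontal, deposited units) for the 5 probe sets of the bright TUBA probe set's cluster number, with 95% intervals from the limma fit, 1 panel per comparison. Filled points passed adjusted p under 0.05. Only the TUBA probe set itself, in the top row, has filled points, at -0.44 for stress in Y12-3 and -0.66 for stressed Y12-3 minus stressed A24-39. The other 4 lie on the same side of 0 in these 2 panels, as did 53.0% and 61.0% of all probe sets.

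The dim TUBA probe set had its highest signal in well-watered A24-39, which alone reached the background level. The arrays gave -0.376, -0.443 and -0.351 units in stressed A24-39, against -0.119, -0.121 and -0.0621 in well-watered A24-39. They gave -0.517, -0.493 and -0.499 units in stressed Y12-3, against -0.432, -0.369 and -0.446 in well-watered Y12-3. Stressed arrays lay under well-watered ones in both genotypes without overlap, where 27.1% of all probe sets separated in A24-39 and 33.7% in Y12-3.

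The group means of the dim TUBA probe set ran from -0.50 ± 0.01 in stressed Y12-3 over -0.42 ± 0.04 in well-watered Y12-3 and -0.39 ± 0.05 in stressed A24-39 to -0.10 ± 0.03 in well-watered A24-39 (SD, n = 3 each). The 2 groups in the middle of this order overlapped. The well-watered A24-39 mean was 0.05 units over the background level, and only the first of its arrays exceeded the brightest non-target control of the same array, by 0.0299 units. The other 3 group means stood at -0.35 to -0.24 units from that level, where differences are not measures of transcript.

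Under stress the signal of the dim TUBA probe set fell in A24-39, with a difference of -0.29 ± 0.03 units (SE, 95% interval -0.36 to -0.21, limma adjusted p = 0.000349). It was the 1 member of 3 called there, against a background of 10.7% called in either direction and 5.35% called lower. Of this difference, 0.05 units lay over the background level, so its size is no measure of how far the transcript fell. In Y12-3, where both means were at background, the difference was -0.09 ± 0.03 units (SE, 95% interval -0.16 to -0.01, limma adjusted p = 0.105). It was -0.10 ± 0.04 units without the third well-watered array (SE, limma adjusted p = 0.0830).

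The difference of these responses, Y12-3 minus A24-39, was 0.20 ± 0.05 units (SE, 95% interval 0.10 to 0.31, limma adjusted p = 0.226), or 0.19 ± 0.05 without that array (SE, limma adjusted p = 0.135). As both Y12-3 means lay under the background level, the size of a fall there is no measure of transcript. In well-watered roots the probe set was lower in Y12-3 than in A24-39, with a difference of -0.31 ± 0.03 units (SE, 95% interval -0.39 to -0.24, limma adjusted p = 0.000409), 1 of 3 members called against 5.28% of all probe sets in either direction and 2.48% lower. The arrays did not overlap there, as for 17.2% of all probe sets, and leaving out the third well-watered Y12-3 array gave -0.30 ± 0.04 units (SE, limma adjusted p = 0.00232). In stressed roots the difference was -0.11 ± 0.03 units (SE, limma adjusted p = 0.0676), between 2 groups at background. The calls in stressed A24-39 and between well-watered genotypes were both lost after rescaling on the added controls (limma adjusted p = 0.927 and 0.228), at differences of -0.22 ± 0.14 and -0.41 ± 0.14 units (SE).

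XTH had its lowest signal in stressed Y12-3 roots and its highest in stressed A24-39 roots. The arrays gave -0.292, -0.271 and -0.245 units in stressed Y12-3, against 0.0821, -0.104 and 0.170 in well-watered Y12-3. In A24-39 it gave 0.904, 0.255 and 0.133 units under stress, against -0.0462, 0.250 and 0.119 with water. The stressed Y12-3 arrays were the lowest 3 of the 12, while the first stressed A24-39 array lay far above all others.

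The group means of XTH ran from -0.27 ± 0.02 in stressed Y12-3 over 0.05 ± 0.14 in well-watered Y12-3 and 0.11 ± 0.15 in well-watered A24-39 to 0.43 ± 0.41 in stressed A24-39 (SD, n = 3 each). Only the lowest pair of neighbours did not overlap. XTH exceeded the brightest non-target control on 0 of 3 stressed and 2 of 3 well-watered Y12-3 arrays, and on all 3 arrays of each A24-39 group. The lowest margin over that control in A24-39 was 0.103 units and the highest 1.04 units.

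In the comparison of stressed Y12-3 with stressed A24-39, XTH was lower in Y12-3, with a difference of -0.70 ± 0.17 units (SE, 95% interval -1.07 to -0.33, limma adjusted p = 0.0278). With the bright TUBA probe set this made 2 of 3 members called lower in stressed Y12-3, against a background of 8.47% called in either direction and 3.39% called lower. The stressed A24-39 mean lay 0.58 units over the background level and the stressed Y12-3 mean under it, and a difference between the genotypes in the sequence under the probes was not tested. Without the first stressed A24-39 array it was -0.46 ± 0.09 units (SE, limma adjusted p = 0.0224), and without any 1 of the 3 stressed Y12-3 arrays the limma adjusted p was 0.0781 to 0.0807. In the fit of these 6 arrays alone the limma adjusted p was 0.0679.

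Between well-watered genotypes XTH differed by -0.06 ± 0.17 units (SE, 95% interval -0.43 to 0.31, limma adjusted p = 0.936), or -0.12 ± 0.19 with the third well-watered Y12-3 array left out (SE, limma adjusted p = 0.899). Unlike the bright TUBA probe set, XTH kept its difference between stressed genotypes after rescaling on the added controls. It was -0.83 ± 0.16 units (SE, limma adjusted p = 0.00142), where the median of all probe sets stood at -0.20. Relative to that median the XTH difference was -0.62 units, which was not tested.

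Neither response of XTH to water stress passed the threshold over all arrays. In Y12-3 the difference was -0.32 ± 0.17 units (SE, 95% interval -0.69 to 0.05, limma adjusted p = 0.246), with no overlap between the groups, as for 33.7% of all probe sets. Leaving out the third well-watered Y12-3 array gave -0.26 ± 0.19 units (SE, limma adjusted p = 0.407). In A24-39 it was 0.32 ± 0.17 units (SE, 95% interval -0.05 to 0.69, limma adjusted p = 0.296), and 0.09 ± 0.09 units without the first stressed array (SE, limma adjusted p = 0.690). That array also set the spread: without it, or in a fit of the 6 Y12-3 arrays alone, the difference in Y12-3 stayed at -0.32 with an SE of 0.08 or 0.07 units (limma adjusted p = 0.0272 and 0.0277).

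The responses of XTH differed between genotypes by -0.64 ± 0.24 units, Y12-3 minus A24-39 (SE, 95% interval -1.17 to -0.12, limma adjusted p = 0.501), and by -0.58 ± 0.26 units without the third well-watered array of Y12-3 (SE, limma adjusted p = 0.361). None of the 3 members was called in this comparison, where 0.085% of all probe sets were. For all 3 the 95% interval of a single test left out 0, as it did for 5095 of the 61179 probe sets. The adjustment covered 61179 tests. With the replicate number as a block within each watering regime, limma called 154 probe sets in place of 52, and again 0 of the 3 members. Array weights called the bright TUBA probe set alone among the 3, as given above.

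**Figure D4:**
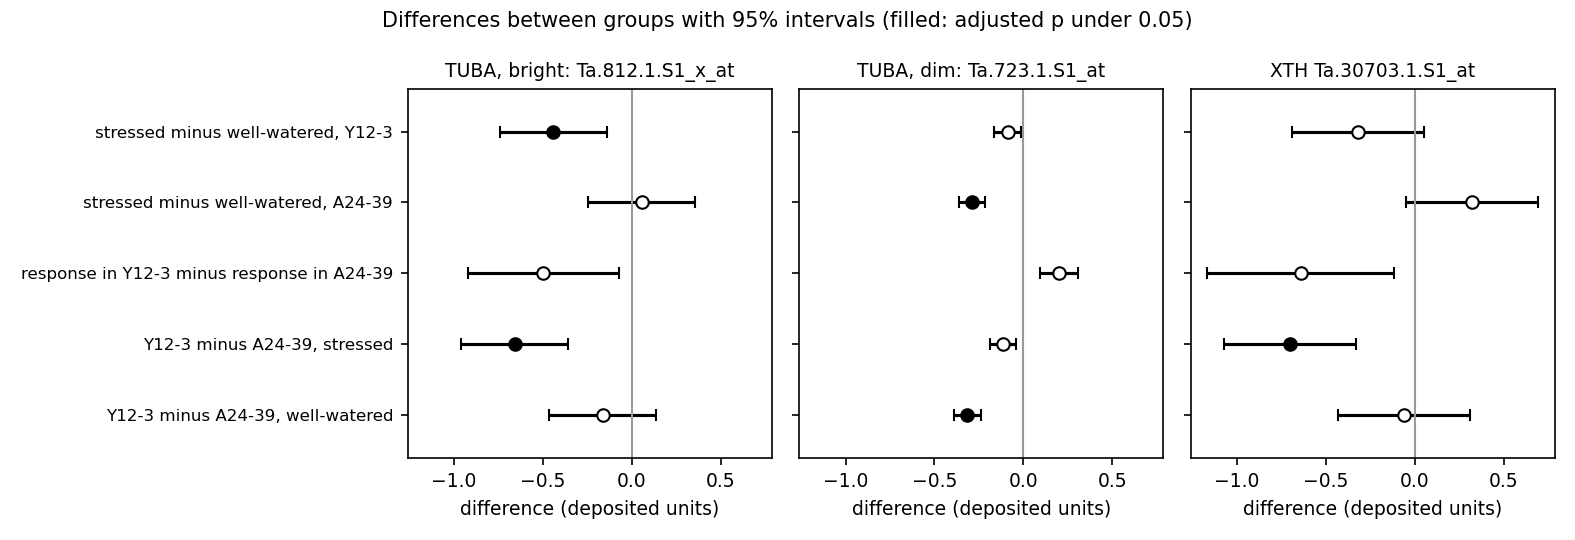
Differences between groups (horizontal, deposited units) for the 3 probe sets, with 95% intervals from the limma fit over 12 arrays. Filled points passed adjusted p under 0.05: the bright TUBA probe set for stress in Y12-3 and for stressed Y12-3 minus stressed A24-39, the dim one for stress in A24-39 and for well-watered Y12-3 minus A24-39, and XTH for stressed Y12-3 minus stressed A24-39. No probe set passed for the difference of the responses.

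Set side by side, the differences under stress in Y12-3 were -0.44 units for the bright TUBA probe set and -0.09 units for the dim one, whose values there lay under background. In A24-39 they were 0.05 units for the bright probe set and -0.29 units for the dim one. The dim one's stressed A24-39 mean lay under the background level, and its well-watered A24-39 mean only 0.05 units over it. No test of one probe set against the other was made, and whether they report 1 transcript could not be checked, as no probe sequence was used here.

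Few other genes of the cytoskeleton and the growing wall could be followed. A list of 60 symbols, among them tubulins, actins, expansins and cellulose synthases, matched the 3 members alone among the annotated probe sets, and the array's own controls added 7 probe sets for actin and sucrose synthase, the enzyme that splits sucrose and supplies the sugar nucleotide used for cellulose. Of these 10, 0 rose and 4 fell under stress in Y12-3, with a median difference of -0.21 units against -0.01 over all probe sets, of which 8.09% were called lower. Without the third well-watered Y12-3 array 0 rose and 4 fell, with a median of -0.19 units. In A24-39 0 rose and 3 fell, with a median of -0.06 units against 0.02, and 5.35% of all probe sets were called lower. The 10 probe sets stand for few genes, since several cover 1 transcript.

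The fallers beside TUBA were the 3′ and middle probe sets of sucrose synthase in both genotypes and, in Y12-3, a 3′ actin probe set that lay under background on every array. The 3′ sucrose synthase probe set fell by 1.46 ± 0.12 units in Y12-3 (SE, limma adjusted p = 2.29e-05, over 61204 probe sets with the array's wheat controls), with -1.56 ± 0.12 units without the third well-watered array (SE, limma adjusted p = 3.53e-05). Its values were 2.91 ± 0.07 units in stressed and 4.37 ± 0.18 in well-watered Y12-3 roots (SD, n = 3 each). The middle actin probe set, over background on all 12 arrays, differed by -0.01 ± 0.05 units in Y12-3 (SE, 95% interval -0.12 to 0.09) and by -0.0031 ± 0.05 in A24-39 (SE, 95% interval -0.11 to 0.11). Of the array's 25 controls for wheat genes, 1 rose and 4 fell in Y12-3, where 8.09% of all probe sets were called lower. In A24-39 0 rose and 3 fell, against 5.35% called lower. The riser, the middle ef1a probe set, differed by 0.35 ± 0.06 units in Y12-3 (SE, limma adjusted p = 0.00142). The control for 18S ribosomal RNA, outside the list above and named after its values were seen, was among the fallers in both genotypes. It differed by -0.59 ± 0.16 units in Y12-3 and -0.64 ± 0.16 in A24-39 (SE, limma adjusted p = 0.0237 and 0.0267). Without the third well-watered Y12-3 array its difference in Y12-3 was -0.47 ± 0.16 units (SE, limma adjusted p = 0.0738).

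Probe sets with the most similar pattern were sought by Pearson correlation over the 12 arrays, among 27517 probe sets with a group mean over background. For the bright TUBA probe set the symbols were LOC543361 (0.967), LOC543315 (0.953) and LOC100037598 (0.936), and the nearest 2 probe sets without a symbol reached 0.973 and 0.966. The other 4 probe sets of its cluster number correlated with it at 0.613 to 0.909. For the dim TUBA probe set they were LOC543146 (0.950), LOC543184 (0.906) and LOC543148 (0.891), and 0.975 and 0.970 without a symbol. For XTH the likeness was lower, with LOC780595 (0.849), LOC606353 (0.834) and LOC543056 (0.773), and 0.929 and 0.901 without a symbol. A correlation over 0.9 was reached by 31, 82 and 2 probe sets for these 3 members, over arrays that share their genotype, watering and signal scale.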

How the data were processed

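The authors deposited 1 score per probe set and array for 12 arrays. Per the submitters' processing notes they used RMA, a background correction, normalization and summary method, whose version is not stated. The score has array means of 0, SDs of 0.814 to 0.844 and a range of -0.927 to 5.80, and it was used as deposited, with no floor or filter. Neither base nor scaling is stated.

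limma 3.58.1 in R 4.3.3 (lmFit, eBayes) fitted 4 group means to 12 arrays with 8 residual degrees of freedom. The 111 array controls were left out, Benjamini-Hochberg adjustment covered 61179 probe sets, and calls needed an adjusted p under 0.05. The script was tested on simulated data. The members and lists were chosen with earlier results of these data known. Likeness named, per member, the 3 probe sets with 1 symbol and the 2 without one of highest correlation. Of the probe sets, 1273 have 1 gene symbol, 0 several and 59906 none. The number of arrays limits the precision.

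Same-numbered arrays deviated together between genotypes (correlations of 0.170 to 0.575 under stress, where differently numbered arrays reached 0.175, and 0.197 to 0.278 with water), but not between waterings (-0.104 to 0.126). The main fit, which gave the differences between genotypes, leaves this pairing out. Only the refits with replicate blocks use it. The alternatives were quantile normalization, rescaling on added controls, a filter on dim probe sets, array weights, an intensity trend, a covariate, replicate blocks, smaller fits and leaving out each array.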

Additional observations from a re-analysis of the deposited data

How the results depend on the processing

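Over 15 member differences and 301 refits, 260 kept direction and side of the threshold, 24 lost a call, 5 gained one and 12 changed sign, and no sign change touched a called difference. The causes were not tested. Rescaling on the added controls moved the median of all probe sets to -0.20 between stressed and -0.11 between well-watered genotypes, and gave the bright TUBA probe set differences of -0.050 (stress in Y12-3), -0.030 (stress in A24-39), -0.013 (stressed genotypes, 0.19 relative to that median) and 0.0071 (well-watered genotypes). It gave the dim TUBA probe set -0.22 for stress in A24-39 and -0.41 between well-watered genotypes, neither called. Quantile normalization gave the bright TUBA probe set -0.16 for stress in A24-39, -0.23 between stressed genotypes (limma adjusted p = 0.194) and 0.012 between well-watered ones. Array weights called the dim TUBA probe set for stress in Y12-3 (-0.094) and between stressed genotypes (-0.11), called the difference of responses of the bright TUBA probe set (-0.69, limma adjusted p = 0.0352), and turned its well-watered difference to 0.04. With the labelling measure of the added dap RNA (3′ minus 5′ signal, in Y12-3 0.847 ± 0.041 under stress and 1.25 ± 0.20 with water, SD, n = 3 each) as a covariate, the Y12-3 stress difference of the bright TUBA probe set was -0.18 ± 0.22 (SE) and the well-watered difference of XTH 0.038. That Y12-3 stress difference stayed at -0.44 with the replicate block (limma adjusted p = 0.0651) and in the 6 arrays compared (limma adjusted p = 0.0812). The 6 arrays alone gave XTH -0.32 for stress in Y12-3, called, and -0.70 between stressed genotypes, not called. Neither replicate block changed any other member call. The filter on dim probe sets left the dim TUBA probe set out of the fit, with no value, and over the median in place of the brightest non-target control the dim TUBA probe set lay on 12 arrays and not 1.

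Leaving out 1 array at a time, the bright TUBA probe set differed by -0.61 to -0.33 for stress in Y12-3, by -0.0033 to 0.17 for stress in A24-39, by -0.72 to -0.60 between stressed and by -0.27 to 0.0022 between well-watered genotypes. XTH differed by -0.40 to -0.26 for stress in Y12-3, by -0.85 to -0.46 between stressed and by -0.14 to 0.019 between well-watered genotypes.

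Counts over all probe sets moved more. For stress in Y12-3 they were 11716, 6756 after rescaling, 17674 with array weights, 5647 with the dap covariate, and 7731 to 12957 with 1 array left out. For stress in A24-39 they were 6541, 2937, 10843 with array weights, and 3866 to 7588. For stressed genotypes they were 5180, 2085, 12280 and 2984 to 7387. For well-watered genotypes they were 3230, 1177, 1473 in the 6 arrays and 1915 to 3585. For the difference of responses they were 52, 108 after rescaling, 27 with the dim filter, 865 with array weights, 134 with the trend, 154 with the replicate block within watering, and 23 to 625.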
